A study of Mus musculus with 8 samples.

Results

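The elastic fibre genes of SV-LECs, a mouse lymphatic endothelial cell line, were the 10 genes Eln, Fbn1, Fbn2, Fbln1, Fbln2, Fbln5, Efemp1, Efemp2, Mfap2 and Mfap5. They were found by symbol among the 55471 genes of the count table, and each symbol occurred once. RNA was sequenced from SV-LECs left untreated (4 libraries) and from SV-LECs exposed to TGFβ1 at 10 ng/ml for 72 h (4 libraries). Both groups came from 1 SV40-immortalized line isolated from mesenteric adventitial tissue and were grown in DMEM with serum. The 4 samples of a group were technical replicates by the study's methods, so errors and p-values cover technical spread between libraries and not the variation between independent cultures. The comparison asks how the RNA of these genes differs between SV-LECs with and without exposure to TGFβ1.

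Elastic fibres give vessels and skin their recoil. They hold a core of cross-linked elastin, secreted as tropoelastin from Eln, which is laid down on a scaffold of microfibrils. Microfibrils are built of fibrillins (Fbn1 and Fbn2) and carry the small glycoproteins MAGP-1 (Mfap2) and MAGP-2 (Mfap5). Fibulins (Fbln1, Fbln2, Fbln5, and Efemp1 and Efemp2, which encode fibulin-3 and fibulin-4) bridge elastin, microfibrils, cells and cross-linking enzymes. In lymphatic capillaries, anchoring filaments rich in fibrillin tie the endothelial cells to the surrounding tissue.

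Total counts lay between 18952504 and 26386941 per library. Chi-square per degree of freedom lay between 2.37 and 7.84 over the 12 pairs of libraries within groups, above the value near 1 that counting noise alone gives. Levels are given in CPM, counts per 1000000 of the library size after TMM scaling. The 9 lymphatic endothelial markers summed to 417 to 453 CPM in untreated and 444 to 455 CPM in treated libraries. Most of this came from Pdpn, at a mean of 342 CPM in untreated and 313 CPM in treated libraries. Of these markers, Pdpn, Flt4, Nrp2 and Foxc2 passed the filter on low counts. Pdpn changed by -0.13 on the log2 scale (edgeR FDR = 0.00701), while Flt4, Nrp2 and Foxc2 rose by 0.44, 0.41 and 1.81. Prox1, Lyve1 and Reln had at most 3 counts in any library, Itga9 had at most 14, and Ccl21a had 0 in all. The 9 pan-endothelial markers summed to between 11.5 and 13.1 CPM in untreated and between 22.2 and 24.2 CPM in TGFβ1-treated libraries, most of it from Kdr. Kdr rose by 0.93 on the log2 scale (edgeR FDR = 2.01e-38), and Tek, the other tested marker of this list, did not pass the test. Pecam1 and Cdh5 had at most 5 counts in any library, and Tie1 and Erg had 0 in all. Of the 9 markers in each list, 5 lymphatic and 7 pan-endothelial ones did not pass the filter on low counts. Some markers of fibroblasts and of smooth muscle were abundant, and others were near absent. Col1a2 and Col1a1 had means of 5497 and 3459 CPM in untreated libraries, while Dpt and Lum had at most 11 and 9 counts in any library. Tagln and Acta2 had means of 591 and 264 CPM in untreated libraries, while Rgs5 had at most 7 counts in any library. The 8 fibroblast markers summed to 8097 to 10446 CPM in untreated and 10499 to 11934 CPM in treated libraries, with 2 significantly higher and 3 significantly lower of 6 tested. Of all tested genes, 37.6% were significantly higher and 38.0% significantly lower. The 9 smooth muscle and pericyte markers summed to 937 to 999 CPM in untreated and 2476 to 2591 CPM in treated libraries, and all 8 tested were significantly higher. The leukocyte marker Ptprc had at most 1 count in any library, and the leukocyte list, which consisted mostly of Cd68 reads, summed to 5.88 to 7.82 CPM in untreated and 14.9 to 17.1 CPM in treated libraries. The epithelial list summed to 34.2 to 40.7 CPM in untreated and 38.0 to 45.1 CPM in treated libraries, most of it from Krt14. The part of these marker differences in the results on elastic fibre genes was not tested. In bulk RNA, a change in the number of cells that express a gene and a change of RNA per cell cannot be told apart.

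Among the 10 genes, Fbln2, Fbn1 and Efemp2 rose after TGFβ1, while Fbn2, Efemp1, Fbln5, Fbln1 and Mfap2 fell. Eln and Mfap5 did not pass the test. The changes ran from a log2 fold change of -2.20 for Fbn2 to 1.22 for Fbln2. All 10 genes passed the filter on low counts and entered edgeR's likelihood ratio test over 13818 genes, where a gene was called at a false discovery rate (FDR, Benjamini-Hochberg) under 0.05. The 8 significant genes compare with 75.6% of all tested genes that were called in this comparison, so the number of changed elastic fibre genes was close to the background. In the upward direction 3 genes were called, against 37.6% of all genes, and in the downward direction 5, against 38.0%. The median log2 fold change of the 10 genes was -0.20, and that of all tested genes was -0.0064. In the same 8 genes the 4 libraries of one group lay wholly above those of the other (exact two-sided permutation test, p = 0.0286 for each gene, the smallest that 4 libraries against 4 allow). This held for 69.8% of all tested genes.

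**Figure D1:**
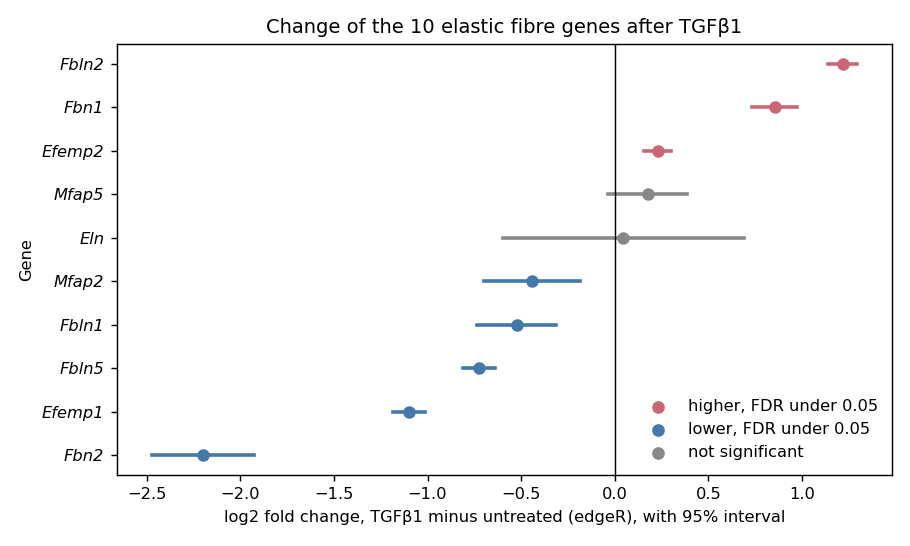
Log2 fold change of each of the 10 elastic fibre genes between TGFβ1-treated and untreated SV-LECs from edgeR (x axis), with the 95% interval as a line, red where significantly higher, blue where significantly lower and grey where not significant. The points run from -2.20 for Fbn2 to 1.22 for Fbln2, and the widest interval is that of Eln, from -0.60 to 0.69.

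Elastin RNA was close to absent in both groups. Eln (ENSMUSG00000029675, chromosome 5, 134702593 to 134747323, GRCm38, minus strand) had 12, 13, 8 and 10 counts in untreated libraries 1 to 4 and 7, 6, 16 and 13 in TGFβ1-treated libraries 1 to 4. The groups overlapped, and treated library 3 was the highest and treated library 2 the lowest of all 8. This was 0.481 ± 0.0958 CPM in untreated and 0.491 ± 0.216 CPM in treated cells (SD, n = 4 libraries per group). The log2 fold change was 0.04 with a standard error (SE) of 0.33 (edgeR FDR = 0.907). Its 95% interval ran from -0.60 to 0.69, or from 0.660-fold to 1.61-fold, so at this depth neither a fall nor a rise within these bounds was detectable. The estimate turned negative without treated library 3 (-0.25), without untreated library 3 (-0.08) and when libraries were scaled by total counts alone (-0.022), and it was not significant in any of these fits.

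Per length of transcript, the levels of the 10 genes were far apart, with Fbln2 at the top and Eln at the bottom of the list in both groups. Levels between genes were compared as RPKM, the CPM per kilobase of merged exon length in GENCODE M21. In untreated cells the mean RPKM was 353 for Fbln2, 218 for Efemp1, 77.2 for Efemp2, 72.0 for Fbln5 and 20.2 for Fbn1. It was 4.61 for Mfap2, 3.58 for Fbln1, 2.00 for Mfap5, 0.752 for Fbn2 and 0.0594 for Eln. The untreated ranges of neighbours in this order did not overlap, with Efemp2 (74.9 to 78.7 RPKM) and Fbln5 (70.4 to 73.4 RPKM) among the closest. After TGFβ1 the mean RPKM was 821 for Fbln2, 102 for Efemp1, 90.5 for Efemp2, 43.5 for Fbln5 and 36.6 for Fbn1. It was 3.41 for Mfap2, 2.50 for Fbln1, 2.26 for Mfap5, 0.165 for Fbn2 and 0.0606 for Eln. The order was the same, but there the ranges of Mfap2 and Fbln1 overlapped, as did those of Fbln1 and Mfap5. By RPKM, Fbln2 stood at rank 43 of 13814 tested genes with an annotated length in untreated cells and at rank 15 in treated cells. Fbn1 moved from rank 2844 to 1422, while Efemp1 moved from 108 to 361, Fbln5 from 569 to 1138 and Fbn2 from 11641 to 13428. Eln stood at rank 13570 and at rank 13730. The spread between libraries of a group, as SD over mean CPM, was under 10% in both groups for Fbn1, Fbn2, Fbln2, Efemp1, Efemp2 and Fbln5. It was 19.9% and 44.1% for Eln, 12.9% and 10.1% for Mfap2, 11.0% and 6.52% for Mfap5, and 4.85% and 16.1% for Fbln1 in untreated and treated cells. An RPKM depends on the annotated exons, which need not all be used in SV-LECs.

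**Figure D2:**
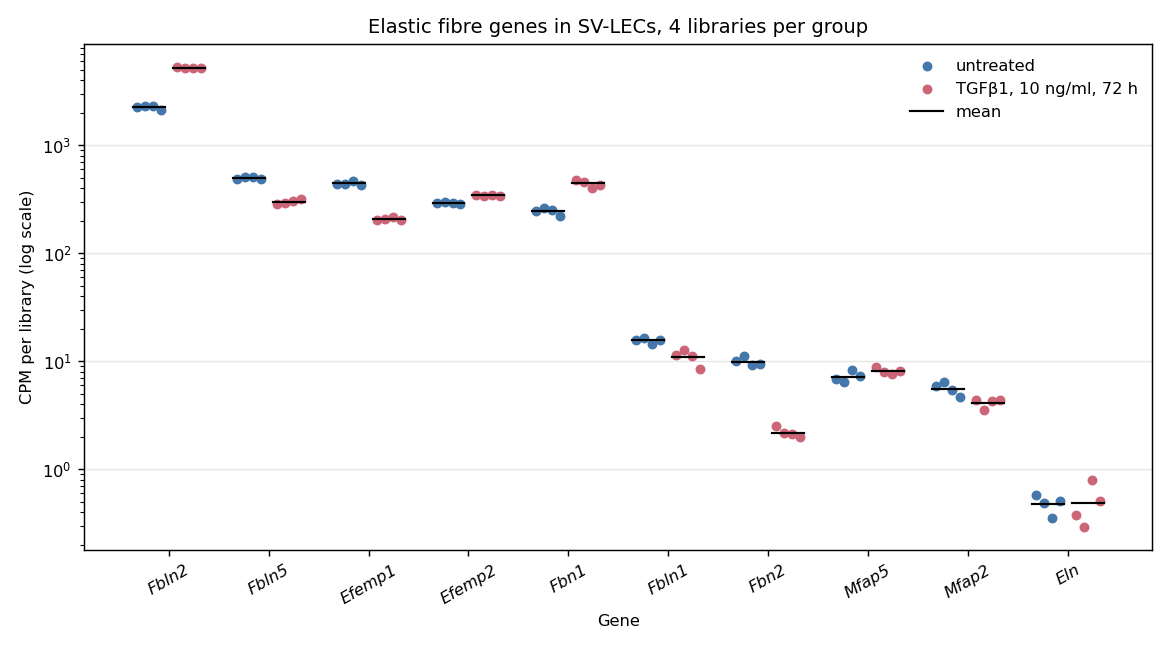
CPM of each elastic fibre gene in each of the 8 libraries (y axis, log scale), with untreated libraries in blue, TGFβ1-treated libraries in red and a black line at the mean of 4 libraries. Fbln2 moves from 2250 to 5228 CPM and Fbn2 from 9.93 to 2.18 CPM, while the Eln libraries of both groups lie between 0.292 and 0.787 CPM.

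The fibrillins, which form the backbone of microfibrils, moved in opposite directions. Fbn1 (ENSMUSG00000027204, chromosome 2, 125300594 to 125507993, minus strand), the main fibrillin of adult tissue, stood at 246, 265, 249 and 221 CPM in untreated libraries 1 to 4. It stood at 477, 460, 405 and 432 CPM in treated libraries 1 to 4, all above the highest untreated library. Its level rose from 245 ± 18.1 to 443 ± 31.4 CPM (SD, n = 4), a log2 fold change of 0.85 with an SE of 0.062 (edgeR FDR = 2.10e-42). Of the exonic bases of Fbn1, 20.1% overlap Gm9913 on the opposite strand. Gm9913 itself had at most 12 counts per library, and whether the counting used strand is not given in the sources used here.

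Fbn2 (ENSMUSG00000024598, chromosome 18, 58008623 to 58210487, minus strand), a fibrillin used mostly in development, was the member with the steepest fall. It had 209, 297, 209 and 185 counts in untreated libraries 1 to 4 and 46, 44, 43 and 51 counts in treated libraries 1 to 4. Its level went from 9.93 ± 0.907 to 2.18 ± 0.217 CPM (SD, n = 4), a log2 fold change of -2.20 with an SE of 0.14 (edgeR FDR = 1.20e-62), and no treated library came near the untreated ones. By log2 fold change it was the 154th lowest of the 13818 tested genes.

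Within a library, the ratio of Fbn1 to Fbn2 counts does not depend on the scaling between libraries. It lay between 23.5 and 27.2 in untreated and between 189 and 216 in treated libraries. On the log2 scale the ratio was 4.62 ± 0.098 in untreated and 7.65 ± 0.10 in treated libraries (SD, n = 4), a difference of 3.03 (exact two-sided permutation test, p = 0.0286, adjusted p = 0.0429 over the 6 ratios compared). Treated libraries lay wholly above the untreated ones for Fbn1 and wholly below them for Fbn2. The ratio therefore had to separate the groups, and its p-value adds no further support. The ratio counts reads and not molecules, since the exons of the genes sum to 12128 bases for Fbn1 and 13215 for Fbn2.

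The microfibril-associated glycoproteins were low, and one of them changed. Mfap2 (ENSMUSG00000060572, chromosome 4, 141010418 to 141015984, plus strand), whose product MAGP-1 binds fibrillin and tropoelastin, stood at 5.83, 6.39, 5.46 and 4.67 CPM in untreated libraries 1 to 4 and at 4.33, 3.51, 4.28 and 4.39 CPM in treated libraries 1 to 4. The groups did not overlap, but untreated library 4 and treated library 4 differed by less than the spread within the untreated group. Mfap2 fell from 5.58 ± 0.721 to 4.12 ± 0.415 CPM (SD, n = 4), -0.44 on the log2 scale with an SE of 0.13 (edgeR FDR = 0.00110).

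Mfap5 (ENSMUSG00000030116, chromosome 6, 122505845 to 122529290, plus strand), which encodes MAGP-2, stood at 6.79, 6.42, 8.25 and 7.30 CPM in untreated libraries 1 to 4 and at 8.82, 7.89, 7.58 and 8.19 CPM in treated libraries 1 to 4. Untreated library 3 lay within the treated range. The means were 7.19 ± 0.794 and 8.12 ± 0.529 CPM (SD, n = 4), with a log2 fold change of 0.18 (SE 0.11, 95% interval -0.04 to 0.39, edgeR FDR = 0.128). Without untreated library 3 it was called higher (log2 fold change 0.25, edgeR FDR = 0.0347). The ratio of Mfap2 to Mfap5 counts fell, with values from 0.640 to 0.994 in untreated and from 0.446 to 0.566 in treated libraries. On the log2 scale this was -0.37 ± 0.30 against -0.98 ± 0.15 (SD, n = 4), a difference of -0.61 (exact two-sided permutation test, p = 0.0286, adjusted p = 0.0429).

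Fbln2 was the most abundant member, per length and in CPM, and the one that rose most. Fbln2 (ENSMUSG00000064080, chromosome 6, 91212455 to 91272540, plus strand) encodes fibulin-2, a large fibulin of elastic fibres and basement membranes. It stood at 2274, 2305, 2297 and 2123 CPM in untreated libraries 1 to 4 and at 5310, 5244, 5182 and 5175 CPM in treated libraries 1 to 4. The lowest treated library was more than 2-fold above the highest untreated one. The level rose from 2250 ± 85.4 to 5228 ± 62.9 CPM (SD, n = 4), a log2 fold change of 1.22 with an SE of 0.040 (edgeR FDR = 1.35e-195).

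Fbln1 (ENSMUSG00000006369, chromosome 15, 85205949 to 85286535, plus strand), the related gene for fibulin-1, went the other way from a far lower level. It stood at 15.8, 16.3, 14.5 and 15.9 CPM in untreated libraries 1 to 4 and at 11.3, 12.7, 11.2 and 8.50 CPM in treated libraries 1 to 4. Treated library 4 was the lowest, and all treated libraries lay below the untreated ones. Fbln1 fell from 15.6 ± 0.758 to 10.9 ± 1.76 CPM (SD, n = 4), a log2 fold change of -0.52 with an SE of 0.11 (edgeR FDR = 2.74e-06). The log2 ratio of Fbln1 to Fbln2 counts was -7.17 ± 0.10 in untreated and -8.91 ± 0.24 in treated libraries, a difference of -1.75 (exact two-sided permutation test, p = 0.0286, adjusted p = 0.0429). Since Fbln1 and Fbln2 each separated the groups, in opposite directions, this p-value was fixed by the single-gene results.

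The short fibulins, fibulin-3, fibulin-4 and fibulin-5, are close relatives of each other, and their RNAs also parted. The RefSeq bases upstream of their annotated starts are shown because these genes encode proteins of like build and did not all move in 1 direction. RefSeq promoter windows on GRCm38.p6 were matched for 7 of the 10 genes, and Eln, Fbn2 and Mfap5 had no entry. The windows of Fbn1 and Fbln2 lie inside exons annotated by GENCODE and are not printed. Capitals mark CAGAC, the half-site bound by SMAD proteins, and GGGCGG, the GC box, on either strand. They also mark TGANTCA, a loose form of the AP-1 site that allows any middle base. The windows are chr11:28852955-28853203 (plus strand) for Efemp1, chr12:101819120-101819369 (minus strand) for Fbln5 and chr19:5473696-5473945 (plus strand) for Efemp2.
Efemp1: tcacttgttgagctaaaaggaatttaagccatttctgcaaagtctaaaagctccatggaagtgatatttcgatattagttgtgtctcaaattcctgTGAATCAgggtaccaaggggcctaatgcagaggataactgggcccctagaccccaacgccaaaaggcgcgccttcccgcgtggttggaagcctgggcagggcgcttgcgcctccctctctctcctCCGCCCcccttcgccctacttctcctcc
Fbln5: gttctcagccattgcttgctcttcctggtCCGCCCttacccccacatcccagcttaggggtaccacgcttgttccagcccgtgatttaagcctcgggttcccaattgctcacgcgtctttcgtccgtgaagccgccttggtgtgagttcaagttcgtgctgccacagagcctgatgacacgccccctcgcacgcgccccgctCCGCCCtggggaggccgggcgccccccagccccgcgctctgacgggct
Efemp2: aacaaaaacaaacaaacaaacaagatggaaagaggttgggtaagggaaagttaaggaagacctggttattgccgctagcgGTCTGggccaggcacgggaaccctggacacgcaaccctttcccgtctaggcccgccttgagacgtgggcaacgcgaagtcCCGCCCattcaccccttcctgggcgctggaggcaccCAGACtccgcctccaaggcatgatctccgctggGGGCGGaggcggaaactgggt
The Efemp1 window, whose gene fell, held 1 GC box and 1 TGANTCA match, TGAATCA, 154 bases before the start. TGANTCA is found in 6.75% of all 32851 RefSeq windows of 250 upstream bases. The Fbln5 window, whose gene also fell, held 2 GC boxes and neither of the other motifs. Its start lies 64 bases from the nearest start of a coding transcript in GENCODE. A second start annotated for Fbln5, 16 bases from the nearest one, has 2 CAGAC matches upstream. The Efemp2 window, whose gene rose, held 2 CAGAC matches, 170 and 54 bases before the start, and 2 GC boxes. The windows of the second and the third start annotated for Efemp2 held 0 CAGAC matches and 5 GC boxes each. These windows overlap, and the boxes are the same sites in both, some of them overlapping each other. Of the other matched genes, Fbln1, which fell, held 2 CAGAC matches in both of its windows, which overlap and share these sites. Mfap2, which also fell, held 0 in the window of its first start and 1 in that of its second. The windows of Fbn1 and Fbln2, which rose, held 0. A link between motifs and direction was not tested. CAGAC is found in 42.2% and GGGCGG in 32.7% of all windows. TATAAA, which 12.4% of windows hold, was not in any of the windows matched to these genes. The marked motifs do not overlap each other in the printed windows. A match describes the sequence only and says nothing on binding.

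Efemp1 (ENSMUSG00000020467, chromosome 11, 28853204 to 28926743, plus strand), the gene of fibulin-3, stood at 442, 439, 468 and 427 CPM in untreated libraries 1 to 4 and at 202, 207, 218 and 201 CPM in treated libraries 1 to 4. The highest treated library lay far below the lowest untreated one. Efemp1 fell from 444 ± 17.3 to 207 ± 7.47 CPM (SD, n = 4), a log2 fold change of -1.10 with an SE of 0.044 (edgeR FDR = 1.98e-134).

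Fbln5 (ENSMUSG00000021186, chromosome 12, 101746565 to 101819055, minus strand) encodes fibulin-5, which binds tropoelastin and integrins and is needed for elastic fibre formation in mice. It stood at 490, 506, 507 and 487 CPM in untreated libraries 1 to 4 and at 284, 294, 304 and 320 CPM in treated libraries 1 to 4, with no overlap. Fbln5 fell from 497 ± 10.5 to 301 ± 15.2 CPM (SD, n = 4), a log2 fold change of -0.73 with an SE of 0.044 (edgeR FDR = 2.11e-59).

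Efemp2 (ENSMUSG00000024909, chromosome 19, 5473954 to 5482517, plus strand) encodes fibulin-4, which binds lysyl oxidase and is needed for elastin cross-linking. It stood at 294, 298, 294 and 284 CPM in untreated libraries 1 to 4 and at 349, 342, 344 and 336 CPM in treated libraries 1 to 4. The shift was small, yet the lowest treated library was above the highest untreated one. Efemp2 rose from 292 ± 6.12 to 343 ± 5.47 CPM (SD, n = 4), a log2 fold change of 0.23 with an SE of 0.037 (edgeR FDR = 1.62e-09). Of its exonic bases, 4.57% overlap Mus81 on the opposite strand, which had 373 to 770 counts per library.

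The ratio of Efemp1 to Efemp2 counts was 1.47 to 1.59 in untreated and 0.580 to 0.632 in treated libraries. It counts reads and not molecules, since the exons sum to 2037 bases for Efemp1 and 3788 for Efemp2. Per length, Efemp1 stayed above Efemp2 after TGFβ1, at a mean RPKM of 102 against 90.5. The log2 ratio was 0.60 ± 0.048 in untreated and -0.73 ± 0.051 in treated libraries (SD, n = 4), a difference of -1.33 (exact two-sided permutation test, p = 0.0286, adjusted p = 0.0429). Since Efemp1 and Efemp2 each separated the groups, in opposite directions, the p-value of their ratio was fixed by the single-gene results. Of the 6 ratios compared, those that involve Eln did not pass. The log2 ratio of Fbln5 to Eln was 9.97 ± 0.32 in untreated and 9.28 ± 0.55 in treated libraries, and that of Eln to Fbn1 was -8.95 ± 0.34 and -9.84 ± 0.67 (exact two-sided permutation test, p = 0.0857 and adjusted p = 0.0857 for each).

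**Figure D3:**
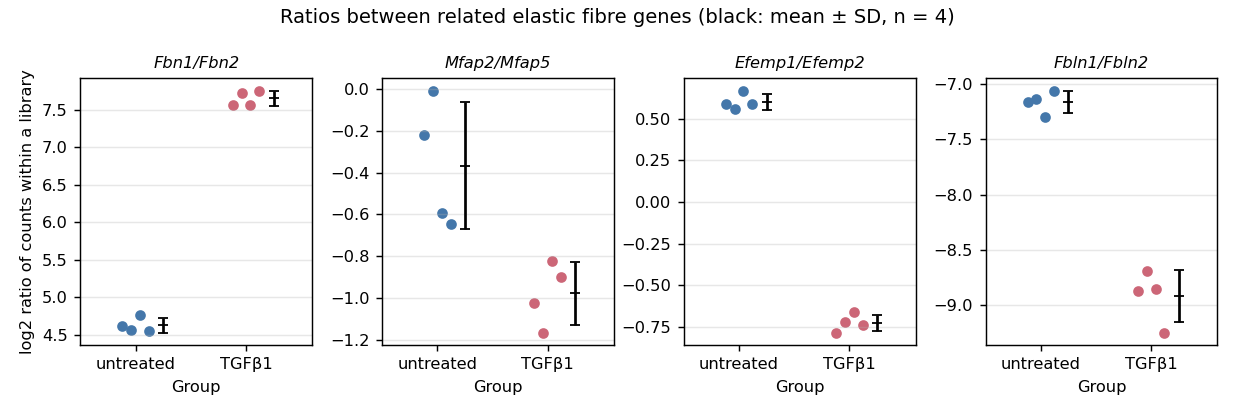
Log2 ratio of counts within each library (y axis, a separate scale in each panel) for pairs of related elastic fibre genes, untreated in blue and TGFβ1-treated in red, with the mean ± SD of 4 libraries in black. The groups are separate in all panels, by a difference of 3.03 for Fbn1/Fbn2, -0.61 for Mfap2/Mfap5, -1.33 for Efemp1/Efemp2 and -1.75 for Fbln1/Fbln2.

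With these changes, the make-up of the elastic fibre RNA shifted towards Fbln2. The 10 genes held 0.385% ± 0.0120 of all counts in untreated and 0.639% ± 0.00709 in treated libraries (SD, n = 4), or 3767 ± 129 and 6548 ± 80.1 CPM in sum. Fbln2 accounted for 59.7% ± 0.318 of their counts in untreated and 79.8% ± 0.0970 in treated libraries. The share of Fbln5 went from 13.2% ± 0.282 to 4.60% ± 0.283 and that of Efemp1 from 11.8% ± 0.324 to 3.16% ± 0.137. Efemp2 held 7.76% ± 0.124 and then 5.23% ± 0.0612, a lower share despite its rise. Fbn1 held 6.50% ± 0.286 and 6.77% ± 0.403, values that differed by less than the SD of the treated libraries. Shares of counts favour long transcripts and were compared only between groups within a gene, without a test.

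**Figure D4:**
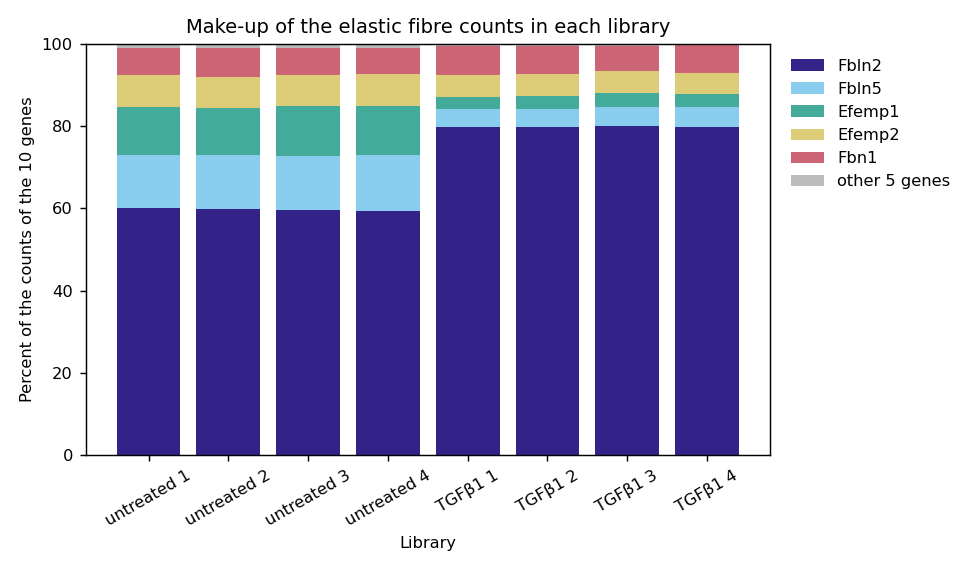
Percent of the summed counts of the 10 elastic fibre genes that each gene takes in each library (y axis, stacked), with untreated libraries on the left and TGFβ1-treated libraries on the right. Fbln2 takes 59.7% on average in untreated and 79.8% in treated libraries, and the 4 bars of a group look alike.

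Other genes that build, bind or break down elastic fibres were examined in a list of 49, and 41 passed the filter on low counts. After TGFβ1, 27 of them rose and 9 fell, against 37.6% and 38.0% of all tested genes, and 5 did not pass the test. The median log2 fold change was 0.58. For 25 of the higher and 8 of the lower genes the groups did not overlap, against 34.7% and 35.1% of all tested genes. Lox, Loxl1, Fn1, Emilin1, Ltbp4 and Mfap4 were named for their roles, and Mmp9, Adamtsl2, Itgb8 and Thsd4 because they had the 2 highest and 2 lowest log2 fold changes of the list. Other genes named here were picked after their values were seen. The counts by role hold few genes each and are read against the same 37.6% and 38.0%.

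The lysyl oxidases cross-link elastin and collagen. Lox, the family's main enzyme, was abundant and was not significantly changed, at 2283 ± 118 CPM in untreated and 2353 ± 133 CPM in treated cells (SD, n = 4). Its log2 fold change was 0.04 (95% interval -0.06 to 0.15, edgeR FDR = 0.447). Loxl1, which acts with fibulin-5 on elastin, stood at 65.8 ± 12.9 and 63.9 ± 16.1 CPM (SD, n = 4), with a log2 fold change of -0.04 (95% interval -0.34 to 0.26, edgeR FDR = 0.820). Loxl2, Loxl3 and Loxl4 rose, with log2 fold changes of 0.87, 1.71 and 1.38.

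Of the family named latent TGFβ binding proteins, relatives of the fibrillins, Ltbp1, Ltbp2 and Ltbp3 rose. Their log2 fold changes were 0.93, 2.63 and 0.26, and the groups overlapped for Ltbp3. Ltbp4, which works with fibulin-5 in elastic fibre assembly, fell from 121 ± 15.2 to 53.3 ± 4.76 CPM (SD, n = 4), a log2 fold change of -1.18 (edgeR FDR = 4.59e-43). In the EMILIN family, Emilin1 rose from 95.5 ± 6.70 to 116 ± 13.2 CPM (SD, n = 4) with overlapping groups (log2 fold change 0.28, edgeR FDR = 0.000502). Its product is a glycoprotein at the elastin and microfibril interface. Mmrn2 also rose, by 2.85 on the log2 scale, and Emilin2 fell by 0.41.

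Among other fibulin and microfibril-associated genes, Mfap4, which binds elastin and fibrillin, rose from 0.354 ± 0.184 to 1.05 ± 0.178 CPM (SD, n = 4), or by 1.58 on the log2 scale (edgeR FDR = 1.51e-07), with at most 28 counts in any library. Hmcn1 fell by 0.82 on the log2 scale with overlapping groups. Mfap3 had a log2 fold change of -0.11 and passed the test (edgeR FDR = 0.031), but not with DESeq2 (FDR = 0.0547). In the ADAMTS and ADAMTS-like genes tied to microfibrils, 4 rose and 1 fell. Adamtsl2, which encodes a fibrillin-binding protein, had 0 to 1 counts per untreated library and 13 to 24 per treated library (edgeR FDR = 6.81e-19), and Adamts6, Adamts10 and Adamtsl4 rose by 1.81, 1.41 and 2.10 on the log2 scale. Thsd4, whose product promotes fibrillin-1 assembly, fell from 15.5 ± 2.55 to 2.87 ± 0.596 CPM (SD, n = 4), a log2 fold change of -2.45 (edgeR FDR = 2.23e-55).

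Of the matrix proteins that bind the fibres, fibronectin (Fn1), on which fibrillin is laid down, rose from 6415 ± 300 to 9989 ± 627 CPM (SD, n = 4), a log2 fold change of 0.64 (edgeR FDR = 3.05e-33). Vcan and Bgn rose by 3.54 and 0.66 on the log2 scale, and Dcn, which is also in the fibroblast list above, fell by 1.91. The processing genes Furin, whose protease trims fibrillin, and Fkbp10 rose by 0.34 and 0.75. Of 6 integrin chains tested, 5 were significantly higher and Itgb8, a chain of a receptor that activates latent TGFβ, fell from 46.2 ± 2.32 to 5.91 ± 1.43 CPM (SD, n = 4), a log2 fold change of -2.97 (edgeR FDR = 8.06e-199). In the elastin receptor complex Glb1 fell by 0.50 on the log2 scale, and Ctsa and Neu1 were not significantly changed. Of the enzymes that can degrade elastin, Mmp9 went from 0.420 ± 0.172 to 17.0 ± 2.53 CPM (SD, n = 4), a log2 fold change of 5.28 (edgeR FDR = 5.78e-159). Mmp14, Ctsk and Mmp2 rose by 1.17, 0.69 and 0.29, and Ctsl fell by 0.74.

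**Figure D5:**
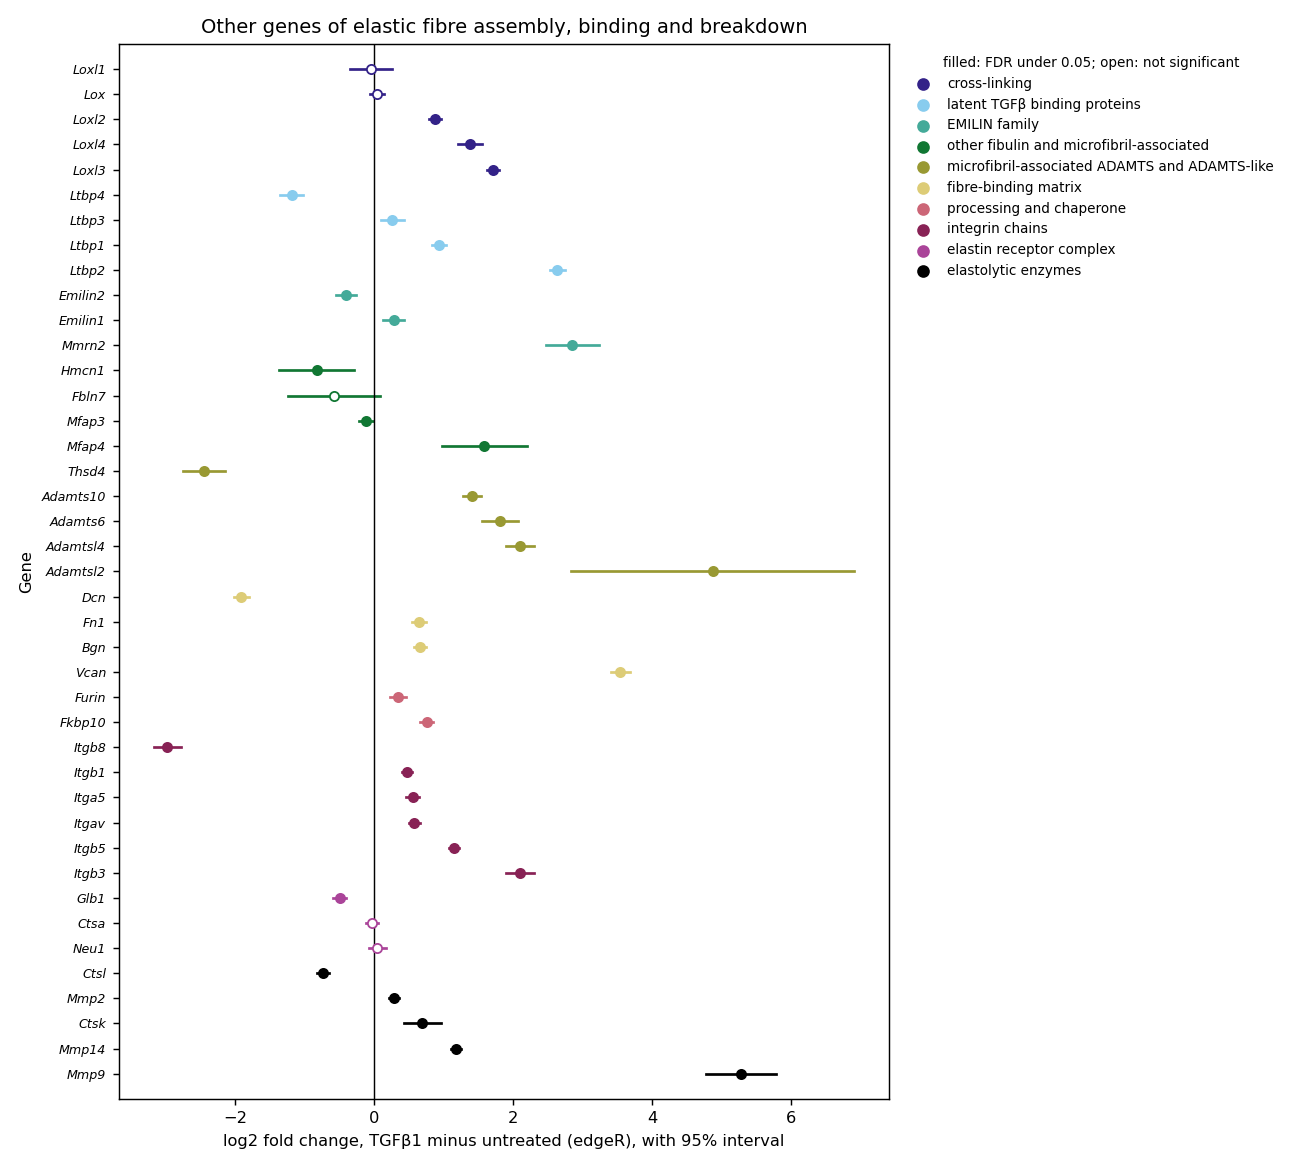
Log2 fold change between TGFβ1-treated and untreated SV-LECs from edgeR (x axis) with 95% intervals for the 41 tested genes of the list, coloured by role, filled where the FDR was under 0.05 and open where not. Most points lie to the right of 0, with Mmp9 at 5.28 and Itgb8 at -2.97, and the position of Adamtsl2 depends on edgeR's prior count because untreated libraries had at most 1 count.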

How the data were processed

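RNA of SV-LECs, untreated or treated with TGFβ1, was sequenced from stranded poly(A) libraries with single-end reads of 75 bases. Per the submitters' processing notes, bcl2fastq 2.20.0.422, STAR 2.7.3a, featureCounts 1.5.1 and GRCm38 were used. The authors deposited raw counts of reads per gene, without normalization. The annotation release and strand setting are not given in the sources used here.

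Groups came from the sample titles. The count table was fitted by edgeR 4.0.16 under R 4.3.3 (filterByExpr, TMM scaling, estimateDisp, glmFit and glmLRT), the test named in the study's methods, with Benjamini-Hochberg FDRs over 13818 genes. Standard errors came from the fitted negative binomial weights. The quasi-likelihood test and DESeq2 1.42.0 were alternatives. The fits were tested on simulated data in which 200 of 13627 genes were changed. There the share of false calls was above the FDR threshold with all of these tests. It was 12.2% with the likelihood ratio test, 9.68% with DESeq2 and 7.1% with the quasi-likelihood test. These shares come from 1 random draw, and an earlier draw gave a larger share for the likelihood ratio test. The simulated setting differs from the data, where 75.6% of tested genes were called. A total of 3 counts in a library corresponds to 0.113 to 0.162 CPM, which covers counting error only. Ratios used counts plus 0.5. Positions, exon lengths and overlaps came from GENCODE M21 and promoters from RefSeq (GRCm38.p6). The members and lists were chosen with earlier results of these data known. All 10 members were named, and 10 genes of the list by rule, among them its 2 largest and 2 smallest log2 fold changes. A search for genes most like Eln was not made because its mean was under 1 CPM.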

Additional observations from a re-analysis of the deposited data

Results flagged for a closer look

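In 2 of the 32 groups of 4 libraries examined (each of the 10 genes and each of the 6 ratios, in both groups), 1 library lay far from the other 3. Chance alone gives about 1 in 20 groups. Mfap2 stood at 3.51 CPM in TGFβ1-treated library 2, against 4.28 to 4.39 CPM in the others. Without that library its log2 fold change was -0.37 (FDR = 0.00809 from edgeR), against -0.44 with it. Fbln2 stood at 2123 CPM in untreated library 4, against 2274 to 2305 CPM in the others. Without it the log2 fold change was 1.19, against 1.22 with it.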

How the results depend on the processing

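The 3 elastic fibre genes called higher and the 5 called lower stood at the same counts with total counts, DESeq2 size factors, DESeq2, edgeR's quasi-likelihood test, either other filter, an FDR of 0.01 and the replicate block. With each library left out in turn, 3 to 4 were higher, the fourth being Mfap5 without untreated library 3, and 5 were lower. The log2 fold change of Eln, which was never significant, was -0.022 with total counts and between -0.25 and 0.22 with a library left out (-0.25 without treated library 3, -0.081 without untreated library 3), and Eln was removed by the filter of 1 CPM in at least 4 libraries. The other log2 fold changes kept their direction in all of these fits. With CPM plus 0.5 in place of counts plus 0.5, the ratios with Eln passed the test, with differences of -0.72 for Fbln5/Eln and -0.86 for Eln/Fbn1 (exact permutation test, adjusted p = 0.0286). The pseudocount is then as large as the level of Eln. Ratios of the other genes kept their call.

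The replicate numbers were no sign of pairing, since the deviations of same-numbered libraries correlated at -0.10, -0.06, -0.03 and -0.19. With the replicate block, 5075 of all genes were higher and 5077 lower, against 5198 and 5251 without it. In the list of 49 genes 27 were higher and 8 lower with the block. Across the other settings 25 to 31 of the list were higher and 8 to 11 lower, with 27 and 9 in the reported fit, 31 and 10 without the filter, and 27 and 8 to 11 with a library left out. A block leaves the mean difference of a ratio as it is (3.03 for Fbn1/Fbn2), and its exact sign-flip test on 4 pairs cannot go below p = 0.125. Depth limits Eln most, at 6 to 16 counts per library.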
